A study of Mus musculus with 12 samples.

Results

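MHC class II and costimulation genes were followed in cerebral vessels of the mouse after lipopolysaccharide (LPS). The list was set by name and holds 10 genes, namely H2-Aa, H2-Ab1, H2-Eb1, Cd74, Ciita, H2-DMa, Cd274, Cd80, Cd86 and Icosl. All 10 were matched by symbol to genes of the GRCm38 build, out of 54119 genes with summed counts, and all 10 were among the 19150 genes that passed the filter on low counts. The vessels came from the forebrains of wild-type C57BL6 mice, which the methods put at 8 to 12 weeks of age, after cardiac perfusion and removal of the meninges. LPS (10 mg/kg) or phosphate buffered saline (PBS) was injected once into the peritoneum, and RNA was taken 15 min, 30 min or 4 h after LPS. The time at which PBS mice were killed is not given in the sources used here. Each of the 4 groups had 3 libraries, and each library pooled vessels of 1 male and 1 female mouse, so sexes and single animals cannot be told apart. The vessels were neither sorted nor cultured, so every cell type left in the preparation contributed RNA.

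MHC class II molecules are pairs of an alpha and a beta chain that carry peptides of ingested proteins to the cell surface, where CD4+ T cells read them. The invariant chain Cd74 fills the peptide groove during assembly, H2-DM exchanges its remnant for antigen peptide, and Ciita is the transactivator without which the class II promoters stay largely silent. Costimulatory ligands decide what a T cell does next: Cd80 and Cd86 bind CD28 and CTLA-4, Icosl binds ICOS, and Cd274 (PD-L1) binds PD-1 and restrains the cell. In the brain class II molecules are known mainly from macrophages beside the vessels, from dendritic cells and from activated microglia, whereas brain endothelium at rest carries little class II. Mice of this strain lack a working H2-Ea alpha chain, so their H2-Eb1 beta chain has no partner at the surface.

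The promoters of 4 members are shown because these genes moved in different ways: the class II chains H2-Aa and H2-Eb1 did not pass the test at any time, Cd274 rose at 4 h, and Icosl rose at 30 min and again at 4 h. Each run holds the 250 bases before the RefSeq start site on GRCm38.p6, 5′ to 3′ on the strand of the gene, with motif matches in capitals.
H2-Aa: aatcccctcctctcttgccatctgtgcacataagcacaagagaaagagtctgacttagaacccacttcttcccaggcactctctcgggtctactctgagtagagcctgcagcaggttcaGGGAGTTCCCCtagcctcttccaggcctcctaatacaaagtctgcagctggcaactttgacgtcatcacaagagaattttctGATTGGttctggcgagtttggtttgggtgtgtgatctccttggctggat
H2-Eb1: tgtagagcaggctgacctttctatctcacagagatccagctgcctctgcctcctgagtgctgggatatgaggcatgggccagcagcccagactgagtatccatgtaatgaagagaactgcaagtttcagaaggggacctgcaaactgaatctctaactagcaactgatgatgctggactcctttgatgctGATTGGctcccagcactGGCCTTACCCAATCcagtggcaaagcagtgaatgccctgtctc
Cd274: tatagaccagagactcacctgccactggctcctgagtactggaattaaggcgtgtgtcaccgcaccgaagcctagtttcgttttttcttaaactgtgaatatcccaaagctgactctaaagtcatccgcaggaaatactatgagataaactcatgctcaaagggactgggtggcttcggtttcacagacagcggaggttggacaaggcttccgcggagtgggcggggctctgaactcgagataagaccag
Icosl: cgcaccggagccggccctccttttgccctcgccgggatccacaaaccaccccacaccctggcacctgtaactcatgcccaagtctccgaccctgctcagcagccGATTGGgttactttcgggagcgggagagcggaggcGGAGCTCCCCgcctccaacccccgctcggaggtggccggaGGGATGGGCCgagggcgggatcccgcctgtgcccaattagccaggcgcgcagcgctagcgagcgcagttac

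The H2-Aa run lies at chr17:34287824-34288073 on the minus strand. The other runs lie on the plus strand, H2-Eb1 at chr17:34305617-34305866, Cd274 at chr19:29367188-29367437 and Icosl at chr10:78069118-78069367. Of the 10 members 6 were in the promoter table, with 7 start sites, and 32851 promoters of the same length were searched for 5 motifs on both strands. The Y box GATTGG, an element of class II promoters that binds NF-Y, was present in 14.6% of all promoters. H2-Aa held it 49 bases before the start, H2-Eb1 60 bases before the start and again, reversed, 35 bases before it, and Icosl 146 bases before it. The NF-κB core, GGG and CC with 5 bases between them, was present in 45.8% of all promoters. It was found in H2-Aa, H2-Eb1 and Icosl, and the match of H2-Eb1 shares bases with its reversed Y box. The GAS element TTCNNNGAA (7.02% of all promoters), a pair of GAAA runs with 2 bases between them (2.98%) and the X box (0.161%) had no match in these 4 windows. The Cd274 window held none of the 5 motifs. Only the set letters of each motif were searched, and variants that differ at a set base were not. The lack of a match says only that these letters are not in a window. This holds for Cd274 and for the X box in H2-Aa and H2-Eb1, whose windows may still hold a variant of it. Cd80 had 2 NF-κB matches, and H2-DMa had a Y box before 1 of its 2 start sites and NF-κB matches before the other.

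Depth was 18.3 to 25.9 M fragments per library. Levels of 1 gene across groups are given as CPM (counts per 1000000 counted fragments) after TMM scaling, and changes as log2 fold changes from edgeR with their standard error (SE). A call needed an adjusted p below 0.05 in the edgeR test for a change beyond 1.5-fold, with Benjamini-Hochberg adjustment across every gene that passed the filter. TMM factors averaged near 1.17 in PBS but 0.717 at 4 h, and scaling by library size alone lowered the median change of all genes at 4 h by 0.70 on the log2 scale. On that scale 55.0% of all genes were called at 4 h, 10.0% higher and 44.9% lower, so higher calls made up 18.2% of the calls against 58% under TMM. The shift applies to each 4 h value below, and calls of members and of the gene lists that it ends or makes are given beside them. In bulk RNA fewer cells of a type and less RNA per cell cannot be told apart. Nothing in the labels says that the libraries of a group were prepared apart, so a p-value measures the spread between these pooled libraries.

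At 4 h 6 of the 10 members were called against PBS, 5 higher and 1 lower, where 33% of all genes tested were called, 19.1% higher and 13.9% lower. Cd274, Icosl, Cd80, Cd86 and Cd74 rose, and Ciita fell. At 30 min only Icosl was called among the members, higher, where 4.62% of all genes were called, 3.8% higher and 0.815% lower (2.84% and 1.83% under library size scaling). At 15 min 0 of 10 members were called in edgeR, where the share of all genes was 4.25%, 3.35% higher and 0.898% lower. Without the limit on fold size, edgeR called 6 members at 15 min (Cd274, Cd74, Ciita, H2-Aa, H2-Ab1 and H2-DMa), against 38.6% of all genes, while DESeq2 and limma with the limit called 0. At 30 min it called 3 (Cd80, Ciita and Icosl), against 36.9%, and at 4 h 7, against 68.5%. The median log2 change of the members was −0.21 after 15 min, 0.052 after 30 min and 0.57 after 4 h, and that of all genes tested was −0.0021, −0.010 and −0.0098. The comparisons with PBS share the same 3 PBS libraries.

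**Figure D1:**
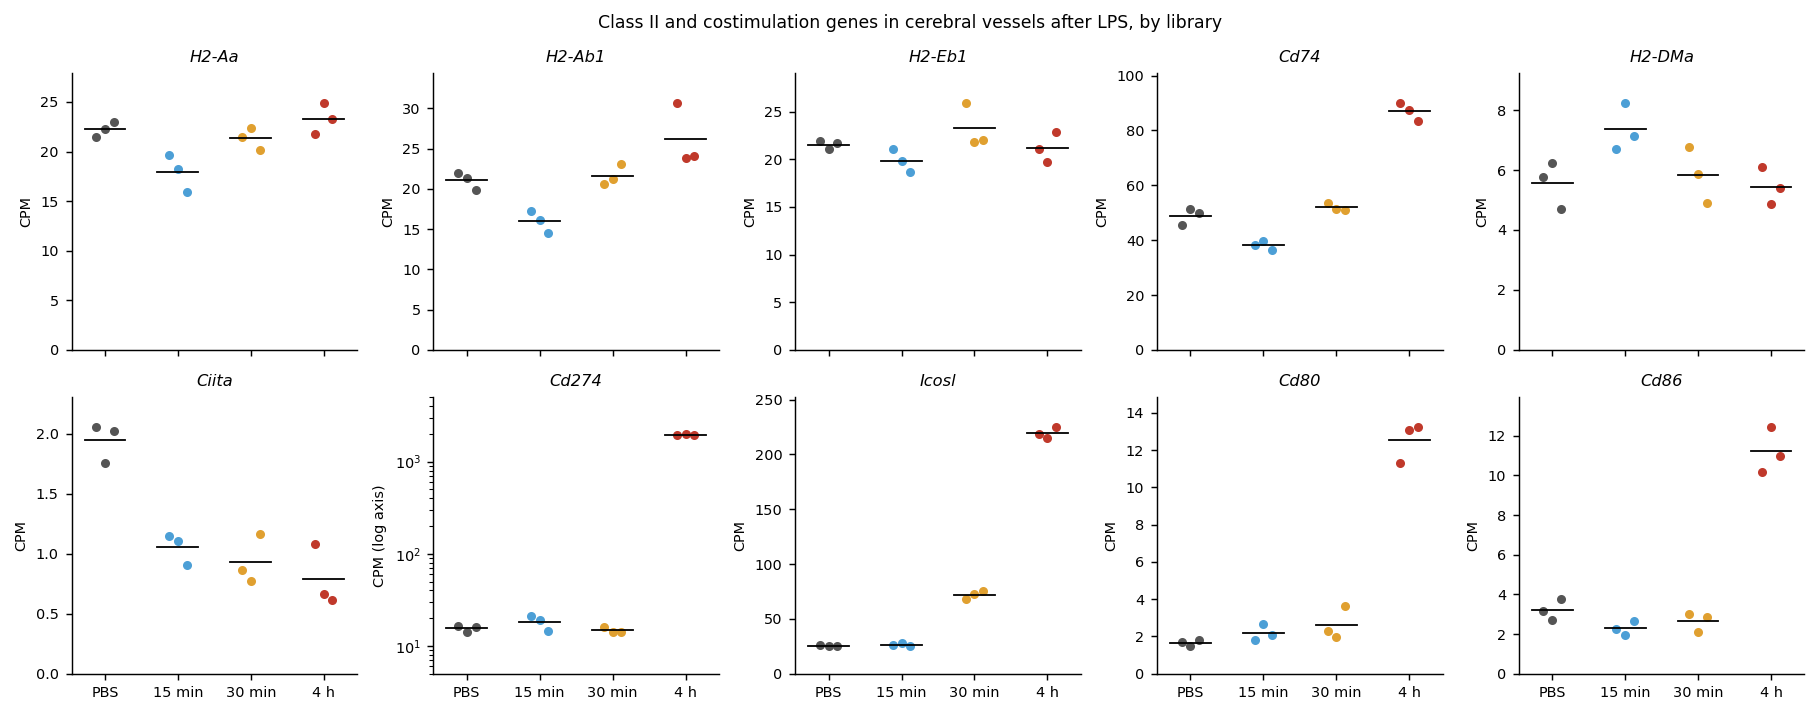
Level of each of the 10 genes in CPM in the 12 libraries, 3 per group, with a bar at the group mean. The axis of Cd274 is logarithmic and the others start at 0. The 3 LPS 4 h libraries of Cd274, Icosl, Cd80, Cd86 and Cd74 lie above all others, those of H2-Aa and H2-Eb1 overlap PBS, and the PBS libraries of Ciita lie above every LPS library.

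The class II chains stayed near their PBS level at 4 h on the TMM scale. H2-Aa, the alpha chain of I-A (chr17:34282744-34287823, minus strand), stood at 21.5, 22.3 and 23.0 CPM in PBS, 19.7, 18.3 and 15.9 CPM at 15 min, 21.5, 22.4 and 20.2 CPM at 30 min and 21.7, 24.9 and 23.3 CPM at 4 h. The 15 min libraries were all below the PBS libraries, and the 4 h libraries overlapped them. The log2 fold change was −0.31 (SE 0.0791) at 15 min and 0.07 (SE 0.0824) at 4 h, with a 95% interval of −0.10 to 0.24 at 4 h, and neither was called. H2-Ab1, its beta chain (chr17:34257689-34269419), stood at 22.0, 21.4 and 19.8 CPM in PBS, 17.3, 16.1 and 14.5 CPM at 15 min, 20.6, 21.2 and 23.1 CPM at 30 min and 30.7, 23.8 and 24.1 CPM at 4 h. Its libraries were below PBS without overlap at 15 min (log2 −0.40, SE 0.0903) and above without overlap at 4 h (log2 0.31, SE 0.0919), and neither change passed the test beyond 1.5-fold. The 4 h interval of H2-Ab1, 0.12 to 0.50, ends below the log2 threshold of 0.58. H2-Eb1, the beta chain of I-E (chr17:34305867-34316674), stood at 21.9, 21.1 and 21.7 CPM in PBS and at 21.0, 19.7 and 22.9 CPM at 4 h, with a log2 fold change of −0.02 (SE 0.0829, interval −0.19 to 0.15). Its libraries at 15 min (21.1, 19.8 and 18.7 CPM) and at 30 min (25.9, 21.9 and 22.0 CPM) both reached the PBS range. Under library size scaling and in the deposited gene table the 15 min libraries of H2-Eb1 lay below PBS.

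The same chains at 4 h look lower when libraries are scaled by their total alone. On that scale the log2 fold change was −0.63 for H2-Aa, −0.39 for H2-Ab1 and −0.73 for H2-Eb1, and H2-Eb1 was called lower by edgeR (adjusted p = 0.0243). So no direction at 4 h held under both scalings for H2-Aa or H2-Ab1. At 15 min both scalings gave values below 0 for all 3 chains, the lowest being −0.42 for H2-Ab1.

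Cd74, the invariant chain, was the most abundant class II member and rose at 4 h on the TMM scale. It stood at 45.5, 51.4 and 49.7 CPM in PBS, 38.1, 39.6 and 36.5 CPM at 15 min, 53.4, 51.3 and 51.1 CPM at 30 min and 90.0, 87.4 and 83.6 CPM at 4 h. The 4 h libraries lay far above all others and the 15 min libraries below all others. At 4 h the log2 fold change was 0.83 (SE 0.0513), or 1.78-fold, with an edgeR adjusted p of 2.74e-05. Under library size scaling the change was 0.13, and the call was lost (adjusted p = 1). At 15 min the change was −0.36 (SE 0.0521), not called. Against 30 min the 4 h rise was 0.74 (SE 0.0517, adjusted p = 0.00206). That call too was lost under library size scaling, at 0.21, and in limma on the gene table, where the adjusted p was 0.0553 or 0.0631 with a pseudocount of 1 or 10.

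H2-DMa, the alpha chain of the peptide exchanger, stood at 5.77, 6.24 and 4.70 CPM in PBS, 6.71, 8.24 and 7.13 CPM at 15 min, 6.76, 5.85 and 4.92 CPM at 30 min and 6.09, 4.86 and 5.40 CPM at 4 h. In CPM the 15 min libraries lay above PBS without overlap (log2 0.40, SE 0.150), and the later groups overlapped it, at −0.04 (SE 0.163) at 4 h. None of these values was called. Under library size scaling the 4 h change was −0.74, not called (edgeR adjusted p = 0.0999), and all 3 libraries at 4 h lay below PBS. The annotated H2-DMa gene (chr17:34119541-34139101) overlaps Brd2, and the library kit does not keep the strand. Brd2 was far more abundant, at 213 CPM ± 3.67 (SD, n = 3) in PBS and 577 CPM ± 5.72 at 4 h, so H2-DMa values are uncertain.

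Ciita, the class II transactivator (chr16:10480059-10528418), was the rarest member once levels were scaled for transcript length, and it fell at 4 h. It stood at 2.06, 1.75 and 2.02 CPM in PBS, 1.15, 1.10 and 0.906 CPM at 15 min, 0.867, 0.775 and 1.16 CPM at 30 min and 1.08, 0.666 and 0.615 CPM at 4 h. These levels rest on 52 to 55 fragments per library in PBS and 9 to 14 at 4 h. In CPM all 9 LPS libraries lay below all 3 PBS libraries. Ciita differed from PBS by −0.88 (SE 0.293) after 15 min, by −1.05 (SE 0.301) after 30 min and by −1.31 (SE 0.330) after 4 h on the log2 scale, and the fall at 4 h alone was called, with an edgeR adjusted p of 0.0167. The steps between neighbouring LPS times were small against their error, −0.18 (SE 0.315) and −0.26 (SE 0.355), and their intervals reach from −0.83 to 0.48 and from −0.996 to 0.478. Values adjusted for the estimated transcript length differed less at the early times. In the deposited gene table Ciita stood at 43.3, 37.4 and 34.7 in PBS, 40.8, 23.3 and 36.5 at 15 min, 18.1, 18.9 and 39.4 at 30 min and 13.6, 8.85 and 25.6 at 4 h, so that both early groups overlapped PBS and the 4 h group did not. A length offset gave log2 changes of −0.18 after 15 min, −0.63 after 30 min and −1.39 after 4 h, and limma on that table with a pseudocount of 10 gave −0.17, −0.50 and −0.94. Library size scaling gave −2.01 at 4 h. The 4 h call was lost in DESeq2 (adjusted p = 0.232), in limma (0.135 and 0.327) and without LPS 4 h replicate 2 or 3 (0.0562 and 0.0641). Ciita overlaps Dexi, which stood at 18.6 CPM ± 1.25 (SD, n = 3) in PBS, 19.7 ± 0.356 at 15 min, 19.3 ± 0.955 at 30 min and 12.97 ± 1.34 CPM at 4 h. Its part in the Ciita value was not tested.

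All 4 costimulatory ligands rose at 4 h, when no class II chain passed the test on the TMM scale. Cd274, the PD-1 ligand PD-L1 (chr19:29367455-29388095), stood at 16.6, 14.3 and 16.1 CPM in PBS, 21.1, 18.9 and 14.6 CPM at 15 min, 16.1, 14.3 and 14.3 CPM at 30 min and 1933, 1992 and 1919 CPM at 4 h. The PBS, 15 min and 30 min libraries overlapped each other, and the 4 h libraries stood far apart from them. The log2 fold change at 4 h was 6.96 (SE 0.0683), or 124-fold, with an edgeR adjusted p of 7.34e-28. The change was 0.22 (SE 0.0862) at 15 min and −0.07 (SE 0.0920, interval −0.26 to 0.12) at 30 min, neither called. Scaled by library size alone the 4 h rise was 76.4-fold. The antisense gene AC119228.1 overlaps Cd274 and went from 0.749 CPM ± 0.202 (SD, n = 3) in PBS to 61.9 CPM ± 1.87 at 4 h, and without strand its reads and those of Cd274 cannot be told apart.

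Icosl, the ICOS ligand (chr10:78069302-78083913), was the only member called at 30 min. It stood at 26.5, 25.3 and 25.2 CPM in PBS, 26.1, 28.3 and 25.6 CPM at 15 min, 67.9, 72.3 and 75.4 CPM at 30 min and 219, 215 and 225 CPM at 4 h. The 15 min libraries overlapped PBS, and each later group lay above all earlier ones. The log2 fold change by edgeR was 0.05 (SE 0.0540, interval −0.06 to 0.16) after 15 min. After 30 min it was 1.48 (SE 0.0492, adjusted p = 7.73e-14), and after 4 h 3.10 (SE 0.0477, adjusted p = 2.16e-23). The step from 15 to 30 min was 1.43 (SE 0.0493, adjusted p = 3.88e-13), where 4.76% of all genes were called, and that from 30 min to 4 h was 1.61 (SE 0.0433, adjusted p = 6.76e-17), where 28.9% were. Icosl is in a list of 30 min genes that the study drew from these same libraries, so its direction there is no independent evidence.

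Cd80 and Cd86, the ligands of CD28 and CTLA-4, were rare in PBS and rose at 4 h. Cd80 (chr16:38455561-38496335) stood at 1.72, 1.48 and 1.79 CPM in PBS, 1.80, 2.68 and 2.08 CPM at 15 min, 2.30, 1.98 and 3.62 CPM at 30 min and 11.3, 13.1 and 13.3 CPM at 4 h. Its 15 and 30 min libraries lay just above PBS without overlap under TMM, and the 4 h libraries were several-fold higher. The log2 fold change was 0.38 (SE 0.226) at 15 min and 0.66 (SE 0.225) at 30 min, neither called, and 2.91 (SE 0.210, edgeR adjusted p = 2.86e-10) at 4 h. Cd86 (chr16:36603869-36666081, minus strand) stood at 3.15, 2.70 and 3.78 CPM in PBS, 2.24, 1.95 and 2.68 CPM at 15 min, 2.99, 2.11 and 2.86 CPM at 30 min and 10.2, 12.5 and 10.997 CPM at 4 h. The 15 min libraries lay just below PBS, and only the 4 h libraries stood above it. Its log2 fold change was −0.48 (SE 0.191) at 15 min, not called, and 1.81 (SE 0.179, edgeR adjusted p = 3.37e-07) at 4 h. From 30 min to 4 h Cd80 rose by 2.25 (SE 0.203) and Cd86 by 2.08 (SE 0.185), both called.

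**Figure D2:**
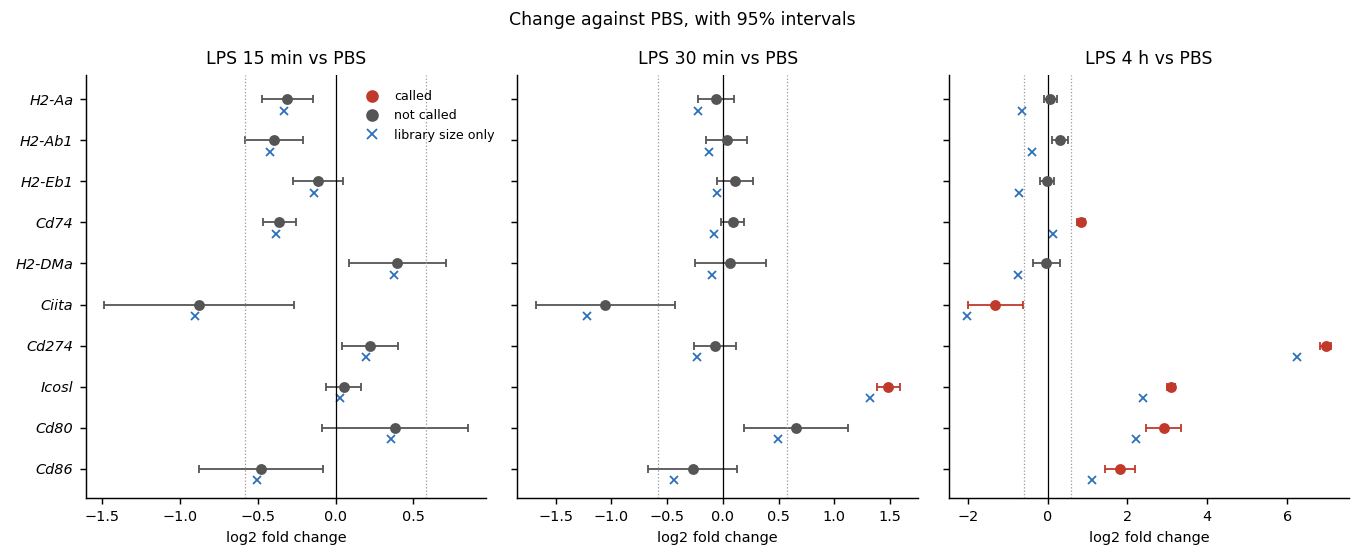
Log2 fold change of the 10 genes against PBS at each LPS time (x axis, with its own range in each panel), with 95% intervals. Red points were called by the edgeR test beyond 1.5-fold (dotted lines at 0.58 and −0.58), grey points were not, and blue crosses give the change under library size scaling. Cd274 at 6.96 lies furthest right at 4 h, Icosl is the only red point at 30 min, and no point is red at 15 min.

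In CPM whole groups of libraries stood apart at 15 min for 7 of the 10 members, 5 lower (H2-Aa, H2-Ab1, Cd74, Ciita and Cd86) and 2 higher (H2-DMa and Cd80). Among all genes tested 49.3% stood apart at 15 min, 25.2% higher and 24.1% lower. H2-DMa and Ciita overlapped PBS at 15 min in TPM and in the deposited gene table, both adjusted for length, and Cd80 did under library size scaling. At 30 min 3 members stood apart (Icosl and Cd80 higher, Ciita lower), against 46.7% of all genes, 23.7% higher and 23% lower. Under library size scaling Cd80 overlapped PBS at 30 min, and H2-Aa and Cd86 stood apart lower. In the deposited gene table Ciita overlapped PBS at 30 min. At 4 h 7 members stood apart in CPM, 6 higher and 1 lower, against 70.9%, 35.9% higher and 35% lower. Under library size scaling H2-Ab1 turned from higher to lower at 4 h, and H2-Aa, H2-Eb1 and H2-DMa, which overlapped PBS in CPM, stood apart lower. From 15 to 30 min the 3 chains, Cd74 and Icosl were higher without overlap, 5 members where the share of all genes was 47.6%, 23.7% higher and 23.9% lower, and only Icosl was called, where 2.77% of all genes were called higher and 1.99% lower (2.04% and 3.45% under library size scaling). Without the fold limit 6 members were called in that step, against 37.4%. From 30 min to 4 h 6 members were higher without overlap, against 67.5%, 33.1% higher and 34.4% lower, and 5 were called, all higher, where 17% of all genes were called higher and 11.9% lower (10.1% and 36.4% under library size scaling). Without the fold limit 6 were called, against 65.3%.

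Levels of different members were ranked per length, as TPM (transcripts per 1000000). In PBS Cd74 came first at 73.7 TPM ± 4.28 (SD, n = 3), followed by H2-Aa at 39.6 ± 1.32, H2-Eb1 at 38.0 ± 1.60 and H2-Ab1 at 35.7 ± 2.54 TPM, and these 3 chains did not differ from their neighbour beyond the spread. Icosl stood at 16.6 ± 0.486, H2-DMa at 10.4 ± 1.55, Cd274 at 7.22 ± 0.550, Cd86 at 2.59 ± 0.709, Cd80 at 1.06 ± 0.134 and Ciita at 0.750 ± 0.0918 TPM, each below all libraries of the gene before it. At 15 min the order was the same but for H2-Eb1 and H2-Aa, and Cd80 and Cd86, which changed places within their spread. At 30 min Icosl moved to the second place at 38.8 TPM ± 2.01, within the spread of H2-Eb1 at 32.8 ± 3.72. At 4 h Cd274 led at 478 TPM ± 8.46, Icosl followed at 77.2 ± 2.28 and Cd74 at 70.0 ± 3.34, without overlap. H2-Ab1, H2-Aa and H2-Eb1 then stood at 23.1 ± 3.53, 22.2 ± 1.38 and 18.7 ± 1.72 TPM, below their PBS values, on a scale that sums to a constant in each library. H2-DMa (5.84 ± 0.183), Cd86 (5.03 ± 0.846) and Cd80 (4.64 ± 0.226) overlapped, and Ciita came last at 0.174 ± 0.0923 TPM.

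Transcript estimates split some members between coding and non-coding forms. Nearly all H2-Aa and H2-Ab1 fragments fell to 1 coding transcript each, and Cd274 has a single transcript in the annotation. H2-Eb1 was mixed: in PBS its coding transcript H2-Eb1-203 took a median of 30.7% of fragments, the transcript H2-Eb1-205, annotated for nonsense-mediated decay, 53.1% and the retained-intron form H2-Eb1-204 13.4%. At 4 h these medians were 45.7%, 39.4% and 5.89%, and the ranges of H2-Eb1-203 (28.1% to 34.4% in PBS, 37.6% to 48.1% at 4 h) did not overlap. Icosl was shared by the coding Icosl-201 and the retained-intron Icosl-204. Icosl-204 held 13.1% to 39.6% of Icosl fragments in PBS, 39.4% to 52.7% at 15 min, 32.6% to 36.3% at 30 min and 34.0% to 38.7% at 4 h, so the PBS range reached all 3 LPS ranges. Coding Icosl-201 itself had 10.99 TPM ± 2.36 (SD, n = 3) in PBS, 7.79 ± 1.42 after 15 min, 20.8 ± 0.166 after 30 min and 40.7 ± 1.38 after 4 h. For Cd74, Cd74-201 held a median of 77.8% in PBS and 79.3% at 4 h, with Cd74-202 holding most of the rest. These shares are estimates from short reads and were not tested.

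Of 6 further class II chain and loading genes 3 passed the filter. At 4 h 1 was called higher (H2-DMb2) and 1 lower (H2-Ob), where 33% of all genes were called, and the median log2 change was −0.24 where that of all genes was −0.0098. H2-Ob, a chain of H2-DO, which holds back H2-DM in B cells, went from 2.28 CPM ± 0.143 (SD, n = 3) to 0.763 ± 0.302 at 4 h (log2 −1.59, SE 0.375, edgeR adjusted p = 0.00659), and it was also called lower at 30 min (−1.56, adjusted p = 0.0287). The 30 min call was lost in DESeq2 and limma, with a transcript length offset and on leaving out any PBS library or LPS 30 min replicate 2 or 3, with adjusted p of 0.0541 to 0.855. The 4 h call was lost in DESeq2, in limma and with the length offset, at 0.0786 to 0.369. H2-DMb2 rose from 1.36 CPM ± 0.284 to 4.25 ± 0.708 (log2 1.64, SE 0.261, adjusted p = 0.000221, not called under library size scaling), while H2-DMb1 was at 5.22 ± 1.28 and 4.43 ± 0.216 CPM and was called lower under library size scaling alone (log2 −0.94, adjusted p = 0.0140). These near-identical H2-DM beta genes can share reads, so their split is uncertain. H2-Oa, the partner of H2-Ob, had 37 fragments in PBS and 3 at 4 h, a ratio of 0.157 (95% interval 0.0310 to 0.496, counting error only), and H2-Ea-ps, the unused alpha chain gene, had none.

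Among 11 antigen processing genes 4 were called higher and 1 lower at 4 h, where 19.1% of all genes were called higher and 13.9% lower, with a median log2 change of 0.39. Under library size scaling 2 were called higher and 4 lower, against 10.0% and 44.9% of all genes, and the median was −0.31. Genes called lower on that scale alone, named after their values were seen, were Ctsd (−0.70), Cst3 (−1.09) and March8 (−0.96). Sppl2a, the protease that cuts the last membrane stub of Cd74, rose from 107 CPM ± 4.91 (SD, n = 3) to 908 ± 12.4 (log2 3.08, SE 0.0326, edgeR adjusted p = 1.35e-26). March1, a ubiquitin ligase that sends class II and Cd86 for degradation, rose from 2.18 ± 0.263 to 9.82 ± 0.836 CPM (log2 2.17, SE 0.205). Cathepsin S (Ctss), which trims Cd74, rose by 1.28 (SE 0.0800), a call lost under library size scaling (0.57, adjusted p = 0.397). Cathepsin B (Ctsb) rose by 0.76 (SE 0.0276), with 0.051 and no call on that scale. Cathepsin H (Ctsh) fell by 1.29 (SE 0.0326) on the log2 scale. None of the 11 was called at 15 or 30 min, and without a fold limit 6 were at each of these times, where 38.6% and 36.9% of all genes were.

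Of 7 genes of the class II enhanceosome, the proteins that bind the X and Y boxes beside Ciita, 2 were called higher and 2 lower at 4 h, against the same shares of all genes. Rfx5 rose from 26.4 CPM ± 1.46 (SD, n = 3) to 111 ± 5.01 (log2 2.07, SE 0.0598), and Nfyb rose by 1.32 (SE 0.0748) on TMM scaling, with 0.61 and no call under library size scaling (adjusted p = 0.227). The other RFX subunits moved the other way, Rfxank by −1.04 (SE 0.0939) and Rfxap by −0.85 (SE 0.0772), and the Rfxap call was lost in limma and with a transcript length offset (adjusted p = 0.883 for the latter). The median of the 7 was 0.09 under TMM and −0.61 under library size scaling, and none was called at 15 or 30 min.

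Genes of the interferon gamma route, which is known to switch on Ciita, went up at 4 h while Ciita itself did not. Of 9 tested genes 7 were called higher and none lower, against 19.1% and 13.9% of all genes, with a median log2 change of 2.39. Irf1, a factor that binds the Ciita promoter, stood at 76.4, 80.0 and 78.8 CPM in PBS, 553, 543 and 545 CPM at 30 min and 788, 813 and 815 CPM at 4 h. The gene was the only one of the route called at 30 min (log2 2.80, SE 0.0289, edgeR adjusted p = 6.14e-26). Socs1, a feedback inhibitor of JAK signalling, rose from 4.47 CPM ± 0.194 (SD, n = 3) to 97.2 ± 2.39 at 4 h (log2 4.44, SE 0.0845). Jak2 rose by 2.53 (SE 0.0339) and Irf2 by 2.39 (SE 0.0501), while the receptor chain Ifngr2 rose by 1.14 under TMM but had 0.43 and no call under library size scaling. Ifng had 0 fragments in PBS and 19 at 4 h, at least 12.3-fold higher against a floor of 3 fragments over the PBS group.

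Other ligands of antigen-presenting cells included 6 called higher and 1 lower of 10 tested at 4 h, against 19.1% and 13.9% of all genes, with a median log2 change of 0.90. Under library size scaling 4 were called higher and 2 lower with a median of 0.20, against 10.0% and 44.9% of all genes. The added lower call was Nectin2 (−0.84). Tnfsf9 (4-1BB ligand) stood at 0.375, 0.202 and 0.344 CPM in PBS, 1.99, 3.14 and 3.49 CPM at 30 min and 18.4, 14.5 and 16.0 CPM at 4 h. Its log2 fold change was 3.22 (SE 0.290, edgeR adjusted p = 1.03e-07) at 30 min and 5.72 (SE 0.265, adjusted p = 1.66e-14) at 4 h. Cd40, the receptor through which T cells license antigen-presenting cells, rose from 14.2 CPM ± 0.672 (SD, n = 3) to 270 ± 11.6 at 4 h (log2 4.25, SE 0.0581). Galectin 9 (Lgals9) rose by 3.64 (SE 0.0299) and Pvr, a ligand of TIGIT and CD226, by 3.38 (SE 0.0453). Vsir, the inhibitory molecule VISTA, went the other way, from 84.2 ± 2.32 to 17.9 ± 1.76 CPM (log2 −2.24, SE 0.0620). Pdcd1lg2, the second PD-1 ligand, had 0 fragments in PBS and 17 at 4 h, at least 10.97-fold higher against the same floor. Tnfrsf14 and Cd83 rose by 0.91 and 0.90 at 4 h, calls lost under library size scaling (0.21 and 0.19), and for Tnfrsf14 in 8 of 21 other settings in all. At 30 min Cd83 and Pvr were also called higher, by 0.87 and 0.86, calls lost under library size scaling and in limma, and Vsir was called lower under library size scaling (−0.75).

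Of 8 tested lymphocyte receptors for these ligands 2 were called higher and 1 lower at 4 h, where 33% of all genes were called, with a median log2 change of 0.58. Under library size scaling 2 were called higher and 3 lower with a median of −0.12, where 10.0% of all genes were called higher and 44.9% lower. The added lower calls were Cd4 (−1.32) and Tnfrsf18 (−1.69). Tnfrsf9 (4-1BB), the receptor of Tnfsf9, rose from 0.315 CPM ± 0.0546 (SD, n = 3) to 16.2 ± 0.386 (log2 5.66, SE 0.246, edgeR adjusted p = 4.57e-15). Lag3, a class II receptor, was highest at 30 min, at 11.01 CPM ± 0.844 against 1.43 ± 0.0268 in PBS (log2 2.94, SE 0.175), and stood at 5.48 ± 0.675 at 4 h. Cd28 was also called lower at 15 min (log2 −2.17, adjusted p = 0.0156), a call lost in 7 of 21 other settings. It had 101 fragments in PBS and 1 at 4 h, a ratio of 0.0192 (95% interval 0.000481 to 0.109, counting error only). The PD-1 gene Pdcd1 had 0 fragments in PBS and 14 at 4 h, at least 9.04-fold higher against the floor of 3.

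**Figure D3:**
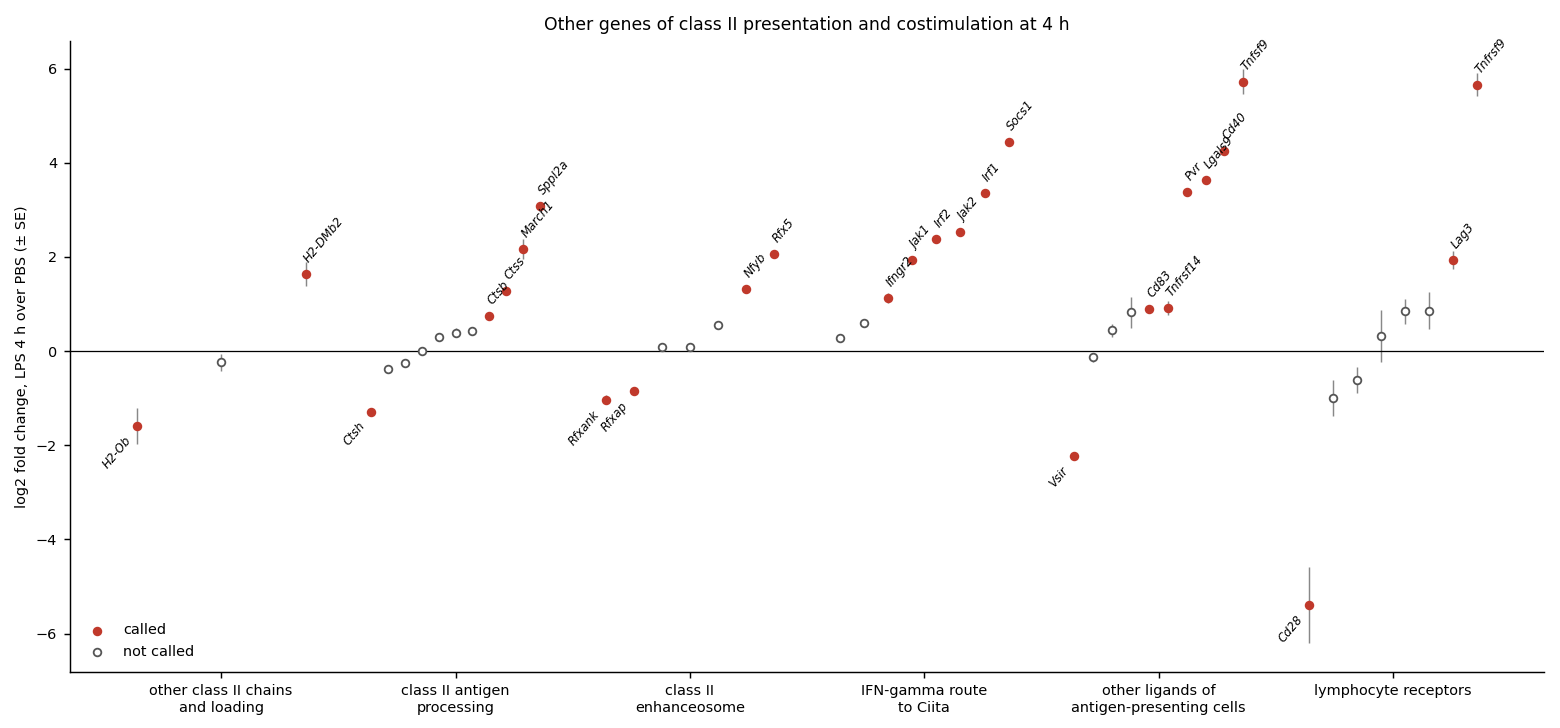
Log2 fold change at 4 h against PBS (y axis, bars ± SE, 3 libraries a group) for tested genes of 6 lists of class II presentation and costimulation, with 1 called gene of the interferon gamma route not shown. Filled red points were called and are named, open points were not. The interferon gamma route holds 6 filled points above 0 and none below, while the enhanceosome holds 2 on each side.

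Markers of the cells that could carry these genes moved too. At 4 h 19.1% of all genes were called higher and 13.9% lower, against 10.0% and 44.9% under library size scaling. Endothelial markers summed to 9254 to 9548 CPM in PBS and 6097 to 6158 CPM at 4 h, with 6 of 8 called lower and 1 higher, and they exceeded each leukocyte list in every group, as the label of vessels implies. Perivascular macrophage markers were at 364 to 369 CPM in PBS and 349 to 355 CPM at 4 h (3 of 8 called higher, 1 lower), and microglia markers at 143 to 149 and 73.0 to 75.3 CPM (6 of 9 called lower). Monocyte markers went from 38.7 to 47.9 CPM in PBS to 135 to 139 CPM at 4 h (3 of 4 called higher). Neutrophil markers went from 4.20 to 5.001 CPM to 183 to 184 CPM (5 of 5 tested called higher, and the defining Ly6g at 0 in PBS and 15 min). Astrocyte markers went from 376 to 406 CPM in PBS to 951 to 1000 CPM at 4 h (3 of 6 called higher). Dendritic cell markers went from 90.5 to 96.8 CPM to 137 to 140 CPM (3 of 9 called higher), and the 7 general leukocyte markers from 145 to 159 CPM to 208 to 222 CPM (4 called higher). Under library size scaling the endothelial list had 1 called higher and 7 lower, the microglia list 0 and 9 and the monocyte list 2 and 0. The perivascular macrophage list had 0 and 2 on that scale, the astrocyte list 2 and 1, the dendritic cell list 3 and 2 and the general leukocyte list 4 and 3. The median log2 change of dendritic cell markers was 0.23 under TMM and −0.48 under library size scaling. In TPM dendritic cell markers summed to 45.2 to 48.9 in PBS and 43.0 to 44.7 at 4 h. General leukocyte markers summed to 94.7 to 100 and 94.7 to 110 TPM. The monocyte, neutrophil and astrocyte sums were higher at 4 h in TPM as well. The part of these marker shifts in the rises of Cd274, Icosl, Cd80, Cd86 and Cd74 was not tested.

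Lymphocyte lists were below PBS at the early times. Of all genes 3.35% were called higher and 0.898% lower at 15 min, and 3.8% and 0.815% at 30 min. B cell markers summed to 20.1 to 22.3 CPM in PBS, 11.9 to 13.1 CPM at 15 min and 9.75 to 11.4 CPM at 30 min, with 2 and then 4 of 6 called lower, and to 14.3 to 15.7 CPM at 4 h. T cell markers summed to 4.59 to 4.85 CPM in PBS, 1.44 to 3.06 CPM at 15 min, 1.74 to 2.82 CPM at 30 min and 7.99 to 9.79 CPM at 4 h. Of 5 tested T cell markers 0 were called at 15 min and 0 at 30 min. At 4 h 1 was called higher and 1 lower, with a median log2 change of −0.55 (−2.63 to 1.88). Under library size scaling 1 T cell marker was called higher and 2 lower at 4 h, where 10.0% and 44.9% of all genes were. Of 6 B cell markers 4 were called lower at 4 h on that scale and 1 under TMM. Several resident lists were below PBS at 15 min. Smooth muscle markers summed to 2470 to 2514 CPM in PBS and 1588 to 1613 CPM at 15 min (3 of 5 called lower), fibroblast markers to 434 to 458 and 313 to 331 CPM (1 of 5 called lower) and astrocyte markers to 376 to 406 and 259 to 286 CPM (1 of 6 called lower). Oligodendrocyte markers stood at 309 to 324 CPM, perivascular macrophage markers at 326 to 328 CPM and microglia markers at 118 to 125 CPM at 15 min, all below PBS with no marker called. Neuron markers went the other way, from 307 to 319 CPM in PBS to 480 to 491 CPM at 15 min (2 of 5 called higher). The sums of dendritic cell (112 to 117 CPM), monocyte (63.3 to 68.9 CPM) and pericyte markers were above PBS too. Of 9 dendritic cell markers, however, 0 were called higher and 1 lower, with a median log2 change of 0.04. Of 4 monocyte and 7 pericyte markers 0 were called, with medians of 7.65e-05 and 0.0047. The lists below PBS moved in the same direction as the CPM of Ciita, Cd74 and the I-A chains at 15 min, and their part in those values was not tested.

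**Figure D4:**
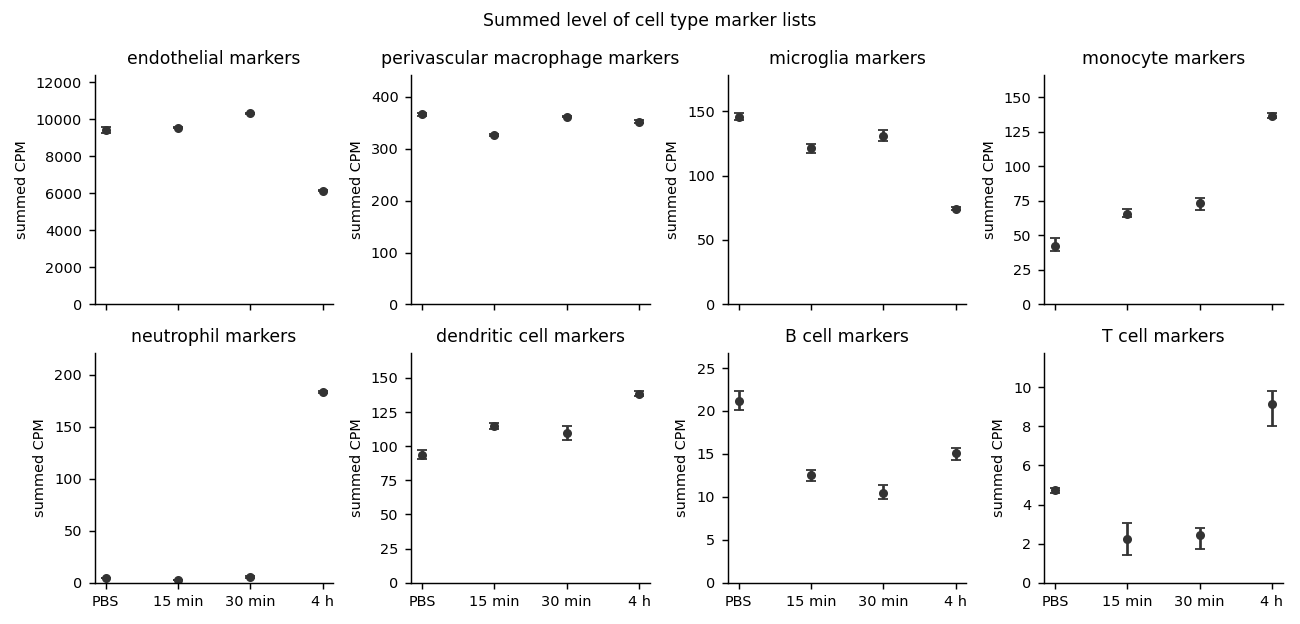
Summed CPM of 8 cell type marker lists by group (y axes start at 0), with the mean of 3 libraries and bars from the lowest to the highest library. Neutrophil and monocyte markers were highest at 4 h, endothelial and microglia markers were lowest there, and B cell markers were below PBS at every LPS time.

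Genes with the most similar course to 3 members were read off 12795 genes with a mean of at least 5 CPM, by Pearson r of log2(CPM + 1) over the 12 libraries, which share depth and group differences. For Cd274 they were Phip, Ifit2 and Ifit3b, each at r = 1.00 to 2 decimals. For Icosl they included Hspa5 and Serpina3f, at r = 0.998, and for H2-Ab1 Etfa (0.942), Igsf1 (0.939) and Snrpf (0.936). With 1 large step at 4 h, many genes share the course of Cd274, and the r values are a description only.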

How the data were processed

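RNA of cerebral vessels was measured in 12 libraries made with the SMART-Seq v4 and Nextera XT kits, which do not keep the strand, with paired-end sequencing. The authors estimated transcript abundance with Salmon 1.2.1 on GRCm38.p6. The deposited estimated counts are fragments assigned to each transcript, not normalized. The deposited TPM values were scaled for transcript length to a constant sum. The deposited gene table holds a signal: gene counts after scaling with DESeq2 size factors and factors for average transcript length. Effective lengths came from the same files.

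Transcripts were joined by identifier to the GENCODE annotation of GRCm38 (139852 of 140948; the rest held 0.482% to 0.850% of fragments) and their counts summed per gene and rounded. All 12 libraries entered 1 edgeR 4.0.16 quasi-likelihood fit (R 4.3.3, TMM, filterByExpr with a minimum count of 10, no covariates), and glmTreat tested 19150 genes against a log2 change of at most 0.58, with Benjamini-Hochberg adjustment over all of them and calls below 0.05. The SE derives from the test statistic and rests on the spread of each gene over all 12 libraries, moderated towards that of other genes. The test was checked on simulated data. Within-group deviations of same-numbered libraries correlated at −0.067 to 0.052, so numbers were not taken as pairs. Replicate libraries differed by 2.21 to 2.84 times counting variance, more than resequencing of 1 library would give. This cannot show whether they came from separate RNA, since library preparation adds spread as well.

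Groups came from the sample titles, and columns of the gene table were matched to libraries by the sample number in the recorded file names. Other settings were RLE factors, library size only, no filter, DESeq2 1.42.0, no fold limit, a length offset, a replicate block, limma 3.58.1 on log2(signal + 1 or 10) and leaving out each library. The members and lists were chosen with earlier results of these data known. All members are described, and genes of the 6 lists were named by the size of their change at 4 h within the list and, for the PBS-zero or nearly lost genes, after their values were seen. Values of some genes that met these rules are not reported here. Promoters came from a RefSeq table (GRCm38.p6). Tables used Python 3.11.15, pandas 2.3.3 and matplotlib 3.10.9.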

Additional observations from a re-analysis of the deposited data

Results flagged for a closer look

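Changes between neighbouring LPS times, tested as a contrast of those groups in the edgeR fit, singled out 6 results. Icosl differed between 15 and 30 min by 1.43 on the log2 scale, higher in 3 of 3 libraries. Between 30 min and 4 h the change was 7.03 for Cd274, 2.25 for Cd80, 2.08 for Cd86, 1.61 for Icosl and 0.74 for Cd74, each higher in 3 of 3 libraries. The Cd74 difference was 0.21 under library size scaling.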

How the results depend on the processing

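All values here are log2 fold changes unless called counts. Counts of called members at 15 min, 30 min, 4 h (each against PBS), 30 min against 15 min and 4 h against 30 min were 0, 1, 6, 1 and 5. With the replicate block they were 0, 1, 6, 1 and 5 as well, and the block changed no call of a member. Leaving out each library in turn gave 0, 1, 5 to 6, 1 and 5. Without the fold limit the counts were 6 at 15 min (38.6% of all genes), 3 at 30 min (36.9%) and 7 at 4 h (68.5%). Between LPS times they were 6 for 30 min against 15 min (37.4%) and 6 for 4 h against 30 min (65.3%). The 4 h count was 6 under library size scaling too, with H2-Eb1 in place of Cd74. Of these 4 were higher and 2 lower, where 55.0% of all genes were called, 10.0% higher and 44.9% lower.

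Members that were not called changed sign in some settings. Library size scaling gave −0.13 for H2-Ab1, −0.054 for H2-Eb1, −0.077 for Cd74 and −0.096 for H2-DMa at 30 min. At 4 h it gave −0.63 for H2-Aa and −0.39 for H2-Ab1, and against 30 min −0.41 and −0.27. For H2-DMa the length offset gave −0.037 at 30 min, 0.052 at 4 h and 0.089 for 4 h against 30 min. Limma with a pseudocount of 1 or 10 gave −0.056 and −0.052, then 0.068 and 0.063, then 0.12 and 0.11. Leaving out single libraries ranged from −0.011 to 0.071 for H2-Ab1 and −0.049 to 0.18 for H2-DMa at 30 min, −0.082 to 0.030 for H2-Eb1 and −0.15 to 0.049 for H2-DMa at 4 h, −0.021 to 0.45 for Cd80 from 15 to 30 min and −0.22 to 0.0072 for H2-DMa from 30 min to 4 h. Among list genes called under either scaling only Ctsd at 4 h (0.0036) changed sign, with −0.70 under library size scaling, −0.047 without a filter, −8.68e-05 in DESeq2, −0.028 with the length offset, −0.029 in limma with either pseudocount and −0.012 to 0.024 on leaving out single libraries. The causes were not tested.

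Depth limits Ciita most, with 9 to 14 fragments per library at 4 h. Each library pools mice, so the spread between single animals is unknown.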
